A study of Mus musculus with 9 samples.

Results

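The comparison described here asks what a finished cycle of PU.1 restoration leaves behind in the RNA of leukaemia cells. It sets 3 libraries of washed cells, from clones 1, 2 and 4, against the 3 untreated libraries of the same clones, and pairs them by clone. These are 6 of the 9 libraries of the series, and the 3 libraries taken during doxycycline are used only to show how far each gene had moved in between. All genes entered the comparison, and clone 1 is given beside clones 2 and 4 throughout because its washed library stands apart.

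PU.1, encoded by Spi1, is an ETS-family transcription factor that drives differentiation of granulocytes and monocytes. Low PU.1 holds myeloid progenitors in an immature state, and mice with reduced PU.1 develop acute myeloid leukaemia. In the cells studied, a hairpin RNA keeps PU.1 low until doxycycline switches the hairpin off, and removing the drug lets the hairpin return. A gene that goes back to its earlier level after that cycle keeps no trace of it in the RNA.

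AML246 is a mouse acute myeloid leukaemia line of the C57BL/6 strain, deficient for p53 and carrying the shPU.1 hairpin, and all groups share these alterations. The cells grew in medium with IL3, and each clone was grown from a single sorted cell for 3 to 4 weeks. Untreated cells were sorted as GFPhigh and had no drug. Cells in doxycycline had 14 days of the drug and were sorted as GFPoff. Washed cells had 14 days of doxycycline, then 14 days without it, and were sorted as GFPhigh again. All 3 clones come from 1 leukaemia line, so p-values reflect variation among clones of that line only. Washed and untreated cells differ in the drug cycle and in time in culture, which cannot be told apart. Under doxycycline the hairpin and the sort gate differ as well.

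The untreated libraries held 7408118, 8003610 and 8052714 counts in clones 1, 2 and 4, and the washed libraries 9241486, 8304777 and 8317385. Untreated clone 1 differs from the rest in makeup: 22.0% of its counts lay on a single entry that has no symbol in the reference table, against 0.153% to 1.64% in the other 8 libraries. Its scaling factor by TMM, a method that sets libraries to a common level over most genes, was 0.740, against 0.929 to 1.16 elsewhere. Levels below are in CPM, counts scaled to a fixed library total, after TMM scaling. With library size alone as the scale, the median log2 ratio of clone 1 over all tested genes moved from 0.03 to 0.67, so modest shifts of clone 1 depend on the scale.

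The target of the hairpin was checked first. Before treatment Spi1 (Entrez gene 20375, at 91082374 to 91115759 of chromosome 2 on GRCm38) measured 47.8 CPM in clone 1, 46.3 in clone 2 and 23.7 in clone 4. Doxycycline took it to 201, 188 and 156 CPM, and after washout it stood at 52.6, 40.2 and 23.8 CPM. Washed and untreated levels overlapped, and each washed clone lay close to its own untreated level. The log2 difference of washed from untreated was -0.02 ± 0.16 (SE, n = 3 clones, edgeR adjusted p = 0.992). Its sign is not stable, since it was 0.18 with library size alone as the scale and 0.07 without clone 2.

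Trp53 (Entrez gene 22059, at 69580348 to 69591873 of chromosome 11) still gave counts in these p53-deficient cells; the exons behind them are not visible in a table of whole genes. It measured 94.0, 78.9 and 61.0 CPM untreated and 33.9, 75.8 and 60.5 CPM washed for clones 1, 2 and 4, so clone 1 alone was low after washout. The response of clone 1 was lower than that of clones 2 and 4 (-1.44 ± 0.25 SE in a 9-library fit, edgeR adjusted p = 0.00618). Clone 1 gives 1 washed and 1 untreated library to every such test, so the SE and p of its response rest on the spread of clones 2 and 4 (2 residual degrees of freedom) and assume that clone 1 varies as they do.

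No gene passed the test of washed against untreated cells across the 3 clones. Washed and untreated ranges did not overlap in 262 of the 11671 genes, a count that carries no test. Of 11671 genes tested with the clone as a block, 0 passed an adjusted p of 0.05 in edgeR's quasi-likelihood test (0% called), and the smallest adjusted p was 0.98. At an unadjusted p under 0.05 there were 31 genes, 16 higher and 15 lower, far fewer than a share of 0.05 of the genes tested. DESeq2 and limma voom also called 0, with 29 and 39 genes under the unadjusted 0.05. On simulated counts with the spread of these 6 libraries, the same test recovered 90% of 4-fold and 38% of 2-fold changes among 200 changed genes, with 17 false calls. The simulated clones all responded alike, unlike clone 1 here, so these shares may not hold for the real libraries.

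The gene of smallest p was Cdkn2a (Entrez gene 12578, chromosome 4, 89274473 to 89294619), which encodes the cell cycle inhibitors p16 and Arf; it did not pass. Untreated levels were 132, 73.0 and 6.17 CPM for clones 1, 2 and 4, and washed levels were 68.2, 25.0 and 3.05 CPM. Each clone ended lower than it began, although the clones started at very different levels and the groups overlap. The log2 difference was -1.19 ± 0.19 (SE, n = 3 clones, edgeR adjusted p = 0.98), and it was -1.44 in the fit on clones 2 and 4 alone (edgeR adjusted p = 2.32e-13). That fit takes the spread of a gene from the trend over all genes, so its p does not measure how closely clones 2 and 4 agree. In doxycycline the levels were 77.9, 29.5 and 13.8 CPM, lower than untreated in clones 1 and 2 and higher in clone 4.

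Other genes with 1 direction in all 3 clones, the smallest p and a mean log2 CPM of at least 3 showed smaller differences, and none passed. Among those lower, Cd28, a co-stimulatory receptor best known in T cells, went from 25.4, 13.9 and 12.1 CPM to 13.9, 5.22 and 9.14 CPM in clones 1, 2 and 4. Slc6a4, the serotonin transporter, went from 36.5, 39.4 and 22.7 CPM to 11.6, 27.7 and 17.5 CPM. Foxo3, a transcription factor of stress resistance and quiescence, went from 54.5, 90.0 and 73.5 CPM to 32.7, 70.1 and 65.6 CPM. The other 6 were Nt5e, Echdc1, Pex26, Igip, Osbpl1a and Idua, with log2 differences from -0.68 to -0.46.

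Among those higher, Mcpt8, the basophil granule protease, stood at 11.3, 57.1 and 12.9 CPM untreated and at 16.6, 84.8 and 17.4 CPM washed. Arrb2, beta-arrestin 2, which damps signalling of G protein-coupled receptors, stood at 41.6, 48.7 and 40.0 CPM untreated, 234, 205 and 200 CPM in doxycycline and 68.8, 66.9 and 44.0 CPM washed. Washed Arrb2 lay on the doxycycline side of untreated, by log2 ratios of 0.72, 0.46 and only 0.14, and the gene did not pass (edgeR adjusted p = 0.98). The remaining 8 were Pawr, Abhd8, Dok2, Mrpl52, B4galnt4, Pop4, Tsen54 and Emid1, with log2 differences from 0.42 to 0.73. Sema4f, a semaphorin of lower level, stood at 1.10, 17.9 and 5.67 CPM untreated, 26.1, 53.3 and 16.6 CPM in doxycycline and 4.09, 25.9 and 13.8 CPM washed, higher than untreated in each clone without passing (edgeR adjusted p = 0.98).

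The 3 clones differed in how closely the washed library matched its own untreated one. Over 8885 tested genes with a mean of at least 10 CPM in the 6 libraries, the median absolute log2 ratio of washed to untreated was 0.45 in clone 1, 0.14 in clone 2 and 0.09 in clone 4. For comparison, doxycycline against untreated gave 0.42, 0.41 and 0.35 in the same clones, so washed clone 1 lay as far from its untreated library as doxycycline clone 1 did. Untreated libraries of different clones were 0.22 to 0.26 apart, farther than washed and untreated libraries of clone 2 or clone 4. Washed clone 1 was 0.42 from doxycycline clone 1 and 0.44 to 0.70 from each of the other libraries.

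**Figure D1:**
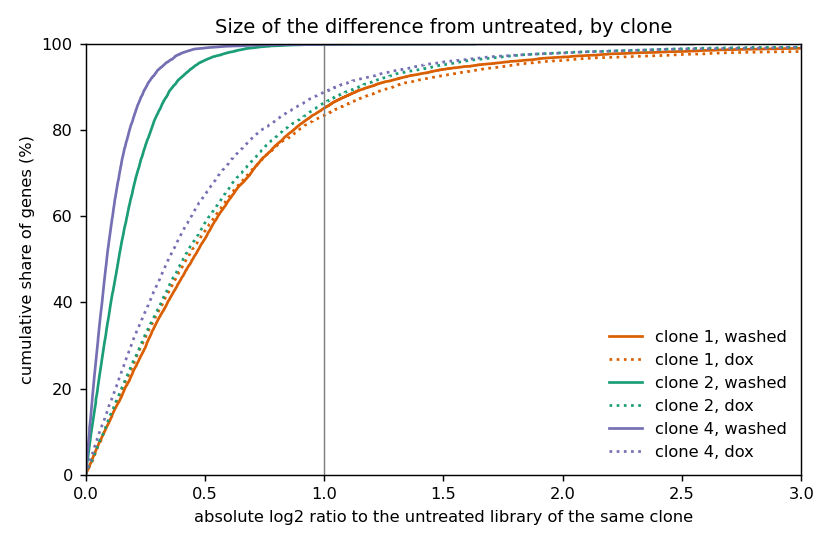
Cumulative share of the 8885 genes (y axis, percent) by the absolute log2 ratio to the untreated library of the same clone (x axis), for washed (solid) and doxycycline (dotted) libraries, 1 library each; the grey line marks 2-fold. The solid lines of clones 2 and 4 climb steeply, with medians of 0.14 and 0.09, and the solid line of clone 1 runs with the dotted lines.

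In clone 1, 453 of the 8885 genes stood at least 2-fold higher after washout (5.1% of the genes) and 869 at least 2-fold lower (9.78%). In clone 2, 1 gene was past 2-fold higher (0.0113%) and 7 lower (0.0788%). In clone 4, 10 were past 2-fold higher (0.113%) and 0 lower (0%). No gene was past 2-fold in both clone 2 and clone 4 in 1 direction, and so none in all 3. With library size alone as the scale, the counts of clone 1 became 2891 higher and 384 lower. These counts compare single libraries and carry no test.

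**Figure D2:**
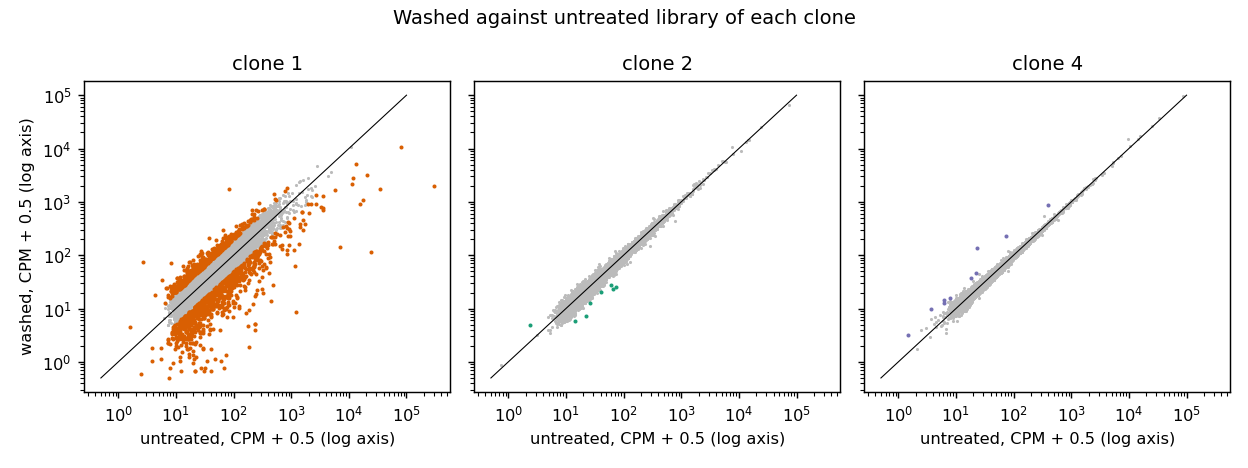
Level of each of the 8885 genes in the untreated (x axis) and washed (y axis) library of each clone, in CPM + 0.5 on log axes; coloured points are past 2-fold and the line marks equal levels. Clone 1 has 453 coloured points above and 869 below, clone 2 has 1 and 7, and clone 4 has 10 and 0.

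Most genes that doxycycline had moved far came back near the untreated level in clones 2 and 4. For 66 genes at least 4-fold above untreated in doxycycline in all 3 clones, the median log2 ratio in doxycycline was 3.38, 3.38 and 3.66 in clones 1, 2 and 4. The washed median was 0.31, 0.03 and 0.10, and 62, 66 and 66 of the genes lay nearer the untreated than the doxycycline level. Past 2-fold from untreated after washout were 22 higher and 11 lower in clone 1, 2 and 3 in clone 2, and 4 and 1 in clone 4. These genes were chosen at a mean of at least 10 CPM over all 9 libraries, so some lie near 0 outside doxycycline and differ from the 8885 genes behind the shares above. Ccl6, a chemokine, is such a gene, at 0.91, 0.50 and 0.25 CPM untreated, 18.6, 50.5 and 53.3 CPM in doxycycline and 1.77, 1.34 and 0.49 CPM washed. For 62 genes at least 4-fold lower in doxycycline, the median was -3.71, -3.23 and -3.08 in doxycycline and -1.57, 0.13 and 0.01 after washout. Nearer untreated than doxycycline were 41, 62 and 62 of the 62. In clone 1, 40 were still past 2-fold lower (9.78% of the 8885 genes) and 2 higher, against 1 lower in clone 2 (0.0788%) and 0 in clone 4 (0%). The ratios of doxycycline and washout share the untreated library of each clone.

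Ncf1, the p47phox subunit of the phagocyte NADPH oxidase, showed a full return: 60.6, 45.3 and 49.1 CPM untreated, 683, 554 and 566 CPM in doxycycline and 56.6, 46.4 and 45.6 CPM washed. Lcn2, the siderophore-binding protein of neutrophil granules, went from 6.75, 4.13 and 3.95 CPM to 270, 97.5 and 153 CPM and back to 4.93, 5.47 and 4.02 CPM. Tph1, which makes serotonin from tryptophan, ran the other way: 36.9, 71.6 and 34.0 CPM untreated, at most 0.27 CPM in doxycycline and 32.1, 89.3 and 30.2 CPM washed. For these genes all 3 clones, clone 1 included, came back close to where they started. The list of secondary and tertiary granule genes, which includes Lcn2, had a median log2 ratio of washed to untreated of -1.39, 0.33 and 0.14. In clone 1 Ltf, Camp and Ngp of that list went from 7.30, 11.3 and 29.0 CPM untreated to 0.465, 2.98 and 7.35 CPM washed. Of its 7 genes of at least 10 CPM, 1 was past 2-fold higher and 2 lower in clone 1, against 5.1% and 9.78% of the 8885 genes. Il9r, the interleukin 9 receptor chain, came back only in part in clone 1, where it stood at 109 CPM untreated, 0.45 in doxycycline and 17.1 washed. In clones 2 and 4 Il9r went from 202 and 154 CPM untreated to 226 and 152 CPM washed.

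Some genes raised by doxycycline stayed up in washed clone 1. Slc40a1, the iron exporter ferroportin, stood there at 7.85 CPM untreated, 159 in doxycycline and 70.0 washed. In clone 2 it read 2.63, 53.3 and 2.67 CPM in the same order, and in clone 4 it read 4.44, 59.2 and 5.73 CPM. Rflnb, refilin B, which organises actin filaments with filamin, read 5.29, 282 and 33.4 CPM in clone 1. Its washed levels in clones 2 and 4 were 7.17 and 9.02 CPM, against 4.76 and 7.52 CPM untreated. Clone 1 is the high library in both genes, and clones 2 and 4 are near their untreated level.

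Others ended below the untreated level, on the far side from doxycycline. Itgam, the CD11b integrin chain of myeloid cells, went in clone 1 from 98.0 CPM through 867 to 35.3, and in clone 2 from 60.0 through 617 to 27.6. In clone 4 it ended higher, going from 19.9 CPM through 759 to 28.2. Tyrobp, the DAP12 signalling adaptor of myeloid receptors, read 92.7, 66.2 and 22.2 CPM untreated and 24.8, 22.5 and 30.0 CPM washed. In both genes the untreated libraries spread widely and the washed ones lie close together at about the level of clone 4. Ptprc, the pan-leukocyte surface protein CD45, was low in all 6 libraries, at 2.01, 1.63 and 0.99 CPM untreated and 0.65, 0.73 and 0.49 CPM washed, with 42.9, 44.5 and 28.0 CPM in doxycycline.

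**Figure D3:**
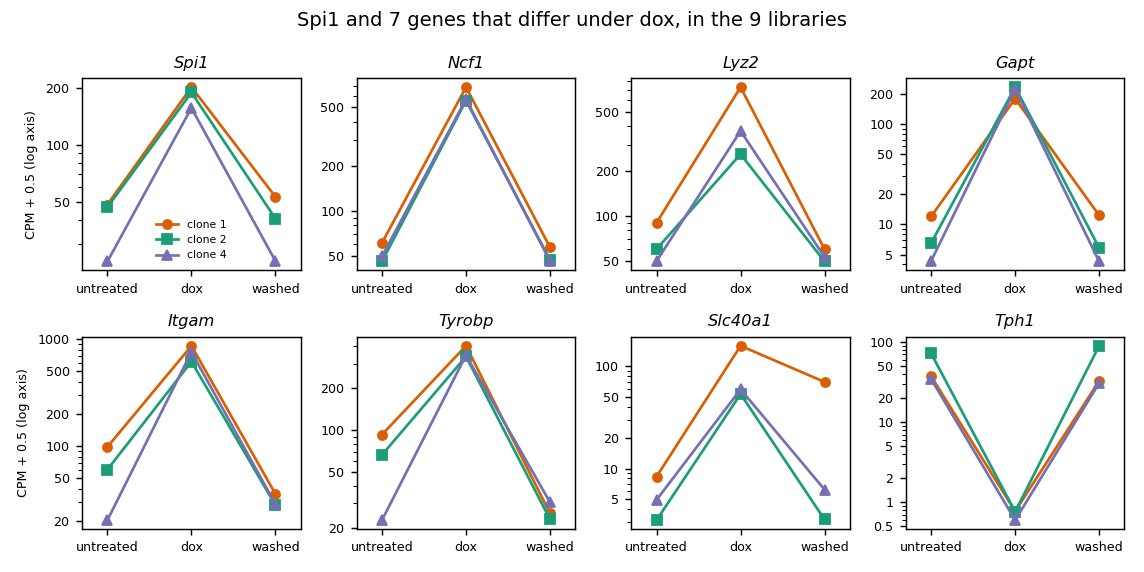
Levels of Spi1 and 7 genes that differ under doxycycline (y axis, CPM + 0.5 on a log axis) in the untreated, doxycycline and washed library of each clone, 1 point per library. Ncf1, Gapt and Tph1 come back near the untreated level in each clone. Lyz2 does so in clones 2 and 4, and in clone 1 it ends lower, at 59.4 CPM against 89.6 CPM untreated. Slc40a1 stays at 70.0 CPM in washed clone 1, and Itgam and Tyrobp meet at similar washed levels.

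Clones 2 and 4 alone showed few differences. In a fit on their 4 libraries, 21 of 11671 genes passed (0.18% called), 13 higher and 8 lower after washout. That fit has 1 residual degree of freedom and takes the spread of each gene from the trend over all genes. Its p-values therefore do not measure how closely clones 2 and 4 agree on a gene. No gene passed in the 9-library fits without the washed or without the untreated library of clone 1. Mcpt8 rose here (log2 difference 0.52, edgeR adjusted p = 0.0489), and so did Prnp, the cellular prion protein, at 83.0 and 24.7 CPM untreated and 119 and 43.5 CPM washed (edgeR adjusted p = 2.66e-05). S100a8, a calprotectin subunit, rose from 10.5 and 3.21 CPM to 17.1 and 9.39 CPM (edgeR adjusted p = 0.00701), with 83.2 and 160 CPM in doxycycline. Both clones moved in 1 direction in these 3 genes. In clone 1 Mcpt8 rose as well, but Prnp went from 19.3 to 6.98 CPM and S100a8 from 24.6 to 20.9 CPM.

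Sema4f was also called higher here (edgeR adjusted p = 0.00785), and Akr1c18, a steroid dehydrogenase, stood at 73.7 and 80.7 CPM untreated and 92.8 and 117 CPM washed (edgeR adjusted p = 0.0104). In clone 1 Akr1c18 went the other way, from 38.9 to 3.72 CPM. Some other calls rested mainly on 1 clone. Fos and Fosb, immediate early genes of the AP-1 factor, were called higher, but Fos went from 74.6 to 231 CPM in clone 4 and from 116 to 133 CPM in clone 2. Fosb went from 22.9 to 135 CPM in clone 4 and from 27.7 to 35.2 CPM in clone 2. In clone 1 both went the other way, Fos from 72.4 to 16.2 CPM and Fosb from 24.8 to 4.65 CPM. Hmga2, an architectural chromatin protein of stem and tumour cells, was called lower, with 21.5 to 6.80 CPM in clone 2 and 20.7 to 16.1 CPM in clone 4. Olfm4, a secreted protein of neutrophil-specific granules, went from 285 to 150 CPM in clone 2 and from 330 to 344 CPM in clone 4. In clone 1 these last 2 stood higher after washout, Hmga2 at 38.1 against 107 CPM and Olfm4 at 512 against 1380 CPM. By the size of the smaller ratio, Retreg1, Ngp, Dyrk3, Usp40, Nemp2, Hspbap1 and Meak7 stood highest beside Sema4f, S100a8 and Prnp, with log2 ratios of 0.45 to 0.91 in clones 2 and 4, and none of these 7 passed. On the low side, beside Cdkn2a and Echdc1, stood Prelid2, Xylt1, Trim13, Esco2, Hccs, Pcca, Tspan2 and Mdfic at -0.77 to -0.40, and none of these 8 passed. In clone 1 Prelid2 read -5.72 and the other 7 were above 0.

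The response of clone 1 was then tested against that of clones 2 and 4. In the 6 libraries, 2455 of 11671 genes had a higher response in clone 1 (21% called) and 2445 a lower one (20.9%). That fit also takes the spread of each gene from the trend over all genes. It leaves 1 residual degree of freedom, so a fit on all 9 libraries with terms for doxycycline was set beside it. It called 749 higher (6.42%) and 1071 lower (9.18%), all of them among the 4900 of the first fit with the same sign. DESeq2 on the 6 libraries called 570 higher and 874 lower. With library size alone as the scale, the 6-library fit called 6228 higher and 974 lower, which is the shift of scale described above. Since clone 1 was known to stand apart, these counts describe how wide its difference runs and give no independent support for it.

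Washed clone 1, not untreated clone 1, was usually the extreme library. It was the lowest of the 6 libraries in 4066 of 11671 tested genes and the highest in 4357, while untreated clone 1 was lowest in 1112 and highest in 1063. An exception is Lars2. This gene, which encodes the mitochondrial leucyl-tRNA synthetase, stood at 35310 CPM in untreated clone 1 and 1753 CPM washed, against 2158 to 5270 CPM in the other 4. In doxycycline clone 1 it stood at 130 CPM. The dominant entry of untreated clone 1, which has no symbol, fell there too, from 297100 CPM through 1348 in doxycycline to 1958 washed. Whether the counts of Lars2 and of that entry share a source was not tested. Rn7sk, the 7SK small nuclear RNA, stood at 235 CPM untreated and 3.44 washed, against 31.1 to 104 CPM in clones 2 and 4. For Lars2 untreated clone 1 is far above the other 5 libraries, and for Rn7sk untreated clone 1 is the highest and washed clone 1 the lowest of the 6.

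Hypoxia response genes stood lower in washed clone 1 as a group. HIF-1, the oxygen-sensing factor, switches on genes for glycolysis, pH control and collagen modification when oxygen is short. Of 30 tested members of the hypoxia list, 24 had a lower response in clone 1 in the 9-library fit and 0 a higher one, against 9.18% lower and 6.42% higher over all tested genes, the background for each list count of this fit. The median log2 ratio of washed to untreated was -2.10 in clone 1, 0.04 in clone 2 and -0.04 in clone 4, against 0.03, 0.00 and 0.00 over all tested genes. Washed clone 1 was the lowest of the 6 libraries in 25 of the 30. With library size alone the clone 1 median was -1.45.

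Car9, the cell-surface carbonic anhydrase of hypoxic cells, measured 442, 623 and 580 CPM before treatment for clones 1, 2 and 4. After washout it measured 13.1, 771 and 455 CPM, so clone 1 alone was low (log2 difference of its response -5.03 ± 0.40 SE, edgeR adjusted p = 0.000228). P4ha2, a collagen prolyl hydroxylase, read 72.8, 111 and 39.2 CPM untreated and 0.84, 136 and 44.7 CPM washed (-6.66 ± 0.38 SE, edgeR adjusted p = 3.33e-05). Bnip3, which marks mitochondria for removal, read 477, 589 and 82.8 CPM untreated and 27.0, 658 and 73.3 CPM washed (edgeR adjusted p = 3.43e-05). In the doxycycline library of clone 1 the 3 genes were already low, at 29.6, 2.43 and 31.3 CPM. Hif1a itself, the regulated subunit, was not low, at 155 CPM untreated and 211 CPM washed in clone 1.

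The hypoxia response core is the motif ACGTG, and it was looked for on both strands in the 250 bases before each annotated start. It occurred in 51.4% of 37 promoters of the list, against 16.6% of all 32851 promoters in the table and 22.1% of the 11624 promoters of tested genes. It was also in 37.5% of glycolysis, 34.3% of cell cycle and 30.8% of immediate early promoters, and the cell cycle genes stood higher in washed clone 1; each CACGTG holds it on both strands. Shown are the 3 largest clone 1 falls in the list that have a mean of at least 10 CPM, 1 annotated start and a match, chromosome 8 left out (and with it Ankrd37), with P4ha2 at chr11:54100674-54100923 (plus strand), Car9 at chr4:43506776-43507025 (plus strand) and Bnip3 at chr7:138909507-138909756 (minus strand). Sequences are from RefSeq on GRCm38.p6, 5′ to 3′, and capitals mark the motif on either strand.
P4ha2: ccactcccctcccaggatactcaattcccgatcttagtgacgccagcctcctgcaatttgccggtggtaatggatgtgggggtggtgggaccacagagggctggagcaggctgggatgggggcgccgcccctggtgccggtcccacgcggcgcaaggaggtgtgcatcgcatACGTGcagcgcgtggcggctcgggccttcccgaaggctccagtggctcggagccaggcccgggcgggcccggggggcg
Car9: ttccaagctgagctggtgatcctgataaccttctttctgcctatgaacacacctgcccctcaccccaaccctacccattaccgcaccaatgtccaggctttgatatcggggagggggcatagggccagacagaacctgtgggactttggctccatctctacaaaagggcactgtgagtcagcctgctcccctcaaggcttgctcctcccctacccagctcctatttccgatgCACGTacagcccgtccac
Bnip3: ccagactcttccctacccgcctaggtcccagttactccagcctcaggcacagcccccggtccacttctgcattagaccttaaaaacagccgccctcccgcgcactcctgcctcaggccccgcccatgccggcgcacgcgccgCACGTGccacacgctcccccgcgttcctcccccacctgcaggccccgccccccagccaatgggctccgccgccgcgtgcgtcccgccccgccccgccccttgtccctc
The match begins 78 bases before the start of P4ha2 and 18 before that of Car9, and the 2 overlapping matches of Bnip3 begin 108 and 107 before its start. A match is a description of the letters and does not show binding.

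Glycolysis genes, many of them HIF-1 targets and some of them (Pdk1 and Slc2a1) also in the hypoxia list, stood lower in the same library. Of 25 tested, 18 had a lower and 0 a higher response in clone 1 in the 9-library fit (background 9.18% and 6.42%), and the median log2 ratio was -1.48, 0.10 and -0.02 in clones 1, 2 and 4. Aldoc, aldolase C, went in clone 1 from 231 CPM through 28.9 in doxycycline to 4.74 washed (edgeR adjusted p = 3.33e-05). In clones 2 and 4 it stood at 356 and 138 CPM untreated and at 424 and 155 CPM washed. Tpi1, triosephosphate isomerase, went from 1762 to 388 CPM in clone 1, from 1802 to 2243 CPM in clone 2 and from 707 to 711 CPM in clone 4.

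**Figure D4:**
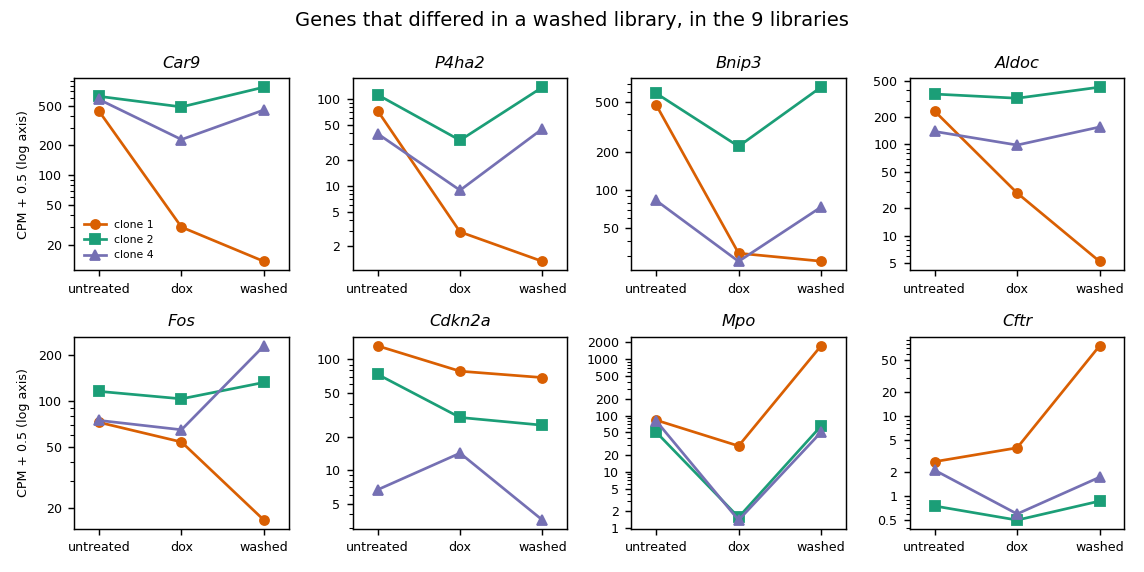
Levels of 8 genes (y axis, CPM + 0.5 on a log axis) in the untreated, doxycycline and washed library of each clone, 1 point per library. Car9, P4ha2, Bnip3 and Aldoc are already low in doxycycline clone 1 and remain so, Mpo and Cftr are high only in washed clone 1 among the 9 libraries, Fos is highest in washed clone 4, and Cdkn2a ends below its untreated level in each clone.

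Transcripts of the mitochondrial genome, which encodes subunits of the respiratory chain, were lower in washed clone 1 in all 13 tested genes, each past 2-fold. The median log2 ratio was -2.08 there, 0.00 in clone 2 and 0.12 in clone 4, and 4 of 13 passed in the 9-library fit (13 in the 6-library fit). COX1, a cytochrome c oxidase subunit, stood at 79130, 74190 and 85160 CPM untreated and at 10690, 64630 and 96940 CPM washed for clones 1, 2 and 4. Under the drug the values were 7412, 72640 and 22760 CPM. Nuclear genes of oxidative phosphorylation did not share this: their median in clone 1 was 0.40, with 2 of 38 higher and 0 lower in the 9-library fit.

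Immediate early genes, which answer growth factor signals within minutes, were also low in washed clone 1. Of 26 tested members, 14 had a lower response and 0 a higher one in the 9-library fit, and the median log2 ratio was -1.57, 0.00 and 0.08. Egr1 stood at 274, 452 and 388 CPM untreated and 32.0, 465 and 396 CPM washed. Jun, a core AP-1 subunit, stood at 278, 593 and 329 CPM untreated and 56.4, 588 and 348 CPM washed. Myc, on the same list, was close to its untreated level in each clone, with 250, 195 and 192 CPM untreated and 229, 163 and 173 CPM washed.

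Of 32 cytokine receptors and their feedback genes, 15 had a lower and 1 a higher response in the 9-library fit (background 9.18% and 6.42%). Cish, an inhibitor induced by STAT5 downstream of IL3, stood at 159, 226 and 121 CPM untreated and 25.2, 245 and 122 CPM washed (edgeR adjusted p = 0.000436). Il3ra, the IL3 receptor alpha chain, stood at 93.6, 118 and 81.8 CPM untreated and 33.1, 131 and 83.3 CPM washed (edgeR adjusted p = 0.00292). Csf1r, the receptor of macrophage colony-stimulating factor, stood at 33.8, 38.4 and 16.9 CPM untreated and 0.56, 61.5 and 13.8 CPM washed. In each of the 3 genes washed clone 1 is the low library.

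Of 22 cell cycle inhibitors tested, 13 had a lower and 1 a higher response in clone 1 in the 9-library fit (background 9.18% and 6.42%). Cdkn1a, the p21 inhibitor, stood at 56.0, 73.2 and 51.3 CPM untreated and 11.2, 66.9 and 56.8 CPM washed. Cdkn2b, the p15 inhibitor next to Cdkn2a, stood at 21.9, 28.2 and 11.1 CPM untreated and 1.86, 35.5 and 11.7 CPM washed. Cdkn2a, in contrast, had no detectable difference of response between clone 1 and the others (0.41 ± 0.70 SE, edgeR adjusted p = 0.722).

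Of 40 cell cycle genes, 15 had a higher and 0 a lower response in clone 1 (background 6.42% and 9.18%), with a median log2 ratio of 0.79 there and -0.12 and -0.04 in clones 2 and 4. Mcm2, a subunit of the replicative helicase, stood at 139, 91.8 and 190 CPM untreated and 387, 72.6 and 184 CPM washed (edgeR adjusted p = 0.00281). Ribosome biogenesis genes had 11 of 33 higher and 0 lower, with a median of 0.71, -0.12 and 0.01. Heatr1, a factor of small subunit assembly, stood at 53.1, 28.2 and 77.8 CPM untreated and 140, 27.9 and 86.8 CPM washed. Cytoplasmic ribosomal protein genes had a median of -0.57 in clone 1, but 0.08 with library size alone as the scale, so their direction depends on the scaling. Histone genes had a median of -2.10 in clone 1, but only 8 of the 19 tested had a mean of at least 10 CPM. Of these 8, 4 were past 2-fold lower in clone 1. Untreated clone 1 was the highest of the 6 libraries in 8 of the 19, and washed clone 1 the lowest in 15.

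Lineage genes of clone 1 moved in both directions. Of 15 primary granule genes, the proteins packed by promyelocytes, 6 had a higher and 2 a lower response in the 9-library fit. Mpo (Entrez gene 17523, chromosome 11, 87793784 to 87804412), myeloperoxidase, stood at 82.3, 50.2 and 79.9 CPM untreated and 1739, 64.5 and 49.9 CPM washed (4.57 ± 0.38 SE, edgeR adjusted p = 0.000264). Ctsg, cathepsin G, stood at 272, 137 and 120 CPM untreated and 962, 118 and 110 CPM washed, and Elane, neutrophil elastase, at 66.0, 30.2 and 28.6 CPM untreated and 205, 19.4 and 38.3 CPM washed. Washed clone 1 had the highest level of all 9 libraries in each. In doxycycline the 3 genes stood below untreated in each clone, Mpo at 28.2, 1.04 and 0.87 CPM. The PU.1 motif GAGGAAGT occurred in 4 of 14 promoters of this list (28.6%), against 2.44% of all promoters in the table, and in 0 of 18 promoters of the PU.1 target list. These are few promoters, a match does not show binding, and a link to the clone 1 levels was not tested.

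In the eosinophil and mast cell lists, 4 of 9 and 6 of 13 genes had a lower response in clone 1 in the 9-library fit and 0 a higher one (background 9.18% and 6.42%). Members that did not pass include the eosinophil peroxidase Epx, at 10900 CPM untreated and 10700 CPM washed in clone 1, and Mcpt8, which stood higher there. Siglecf, Il5ra and Cma1, of low level, also stood higher in washed clone 1, at 4.19, 3.44 and 5.40 CPM against 1.28, 1.09 and 1.09 CPM untreated. Ccr3 and Ms4a2, lower still in level, stood at 0.093 and 0.186 CPM against 0.547 and 0.365 CPM untreated. Cpa3, mast cell carboxypeptidase, stood at 1622, 1594 and 1299 CPM untreated and 454, 1606 and 1374 CPM washed. Prg2, eosinophil major basic protein, stood at 1405, 1634 and 833 CPM untreated and 338, 2169 and 889 CPM washed. Gata2, a transcription factor of stem and mast cells, stood at 893, 1659 and 1403 CPM untreated and 224, 1855 and 1417 CPM washed. Myb, a factor of immature progenitors, ran opposite, with 313, 240 and 370 CPM untreated and 715, 215 and 363 CPM washed (edgeR adjusted p = 0.00585). Cebpa, a granulocyte factor, stood at 42.9, 26.0 and 22.6 CPM untreated and 110, 17.5 and 22.2 CPM washed (edgeR adjusted p = 0.0327).

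The largest rise in washed clone 1 was Cftr (Entrez gene 12638, chromosome 6, 18170687 to 18322770), a chloride channel. It stood at 2.19 CPM untreated, 3.50 in doxycycline and 74.9 washed in clone 1 (5.28 ± 0.70 SE, edgeR adjusted p = 0.002), and at no more than 1.60 CPM in the 6 libraries of clones 2 and 4. The largest fall among genes with a symbol was Ptgds, prostaglandin D synthase, at 1211, 1152 and 831 CPM untreated and 8.0, 1250 and 912 CPM washed. In doxycycline Ptgds was low in all 3 clones, at 15.3, 43.0 and 62.5 CPM, and it came back in clones 2 and 4 alone. Matn1, Rmrp, Dlc1, Ak4, Mgarp, Igfbp5 and Plod2 followed it, with P4ha2 and Rn7sk, at clone 1 log2 ratios from -7.09 to -5.73. Of these, Ak4, Plod2 and P4ha2 are in the hypoxia list. Rmrp stood at 184 CPM in untreated clone 1 and at 1.40 CPM washed. The untreated and washed libraries of clones 2 and 4 held 1.88 to 10.4 CPM, so untreated clone 1 stands far above the rest, as for Lars2. Among the rises, Vcam1, an adhesion receptor, stood at 36.3, 13.8 and 13.4 CPM untreated and 214, 10.2 and 13.3 CPM washed, with 271 CPM in doxycycline clone 1. Hsph1, a heat shock chaperone, stood at 65.1, 48.5 and 88.7 CPM untreated and 297, 42.0 and 81.3 CPM washed. Camk4, Hells, Septin8 and Mtus1 closed the 10 largest rises, with clone 1 log2 ratios of 2.14 to 2.31.

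**Figure D5:**
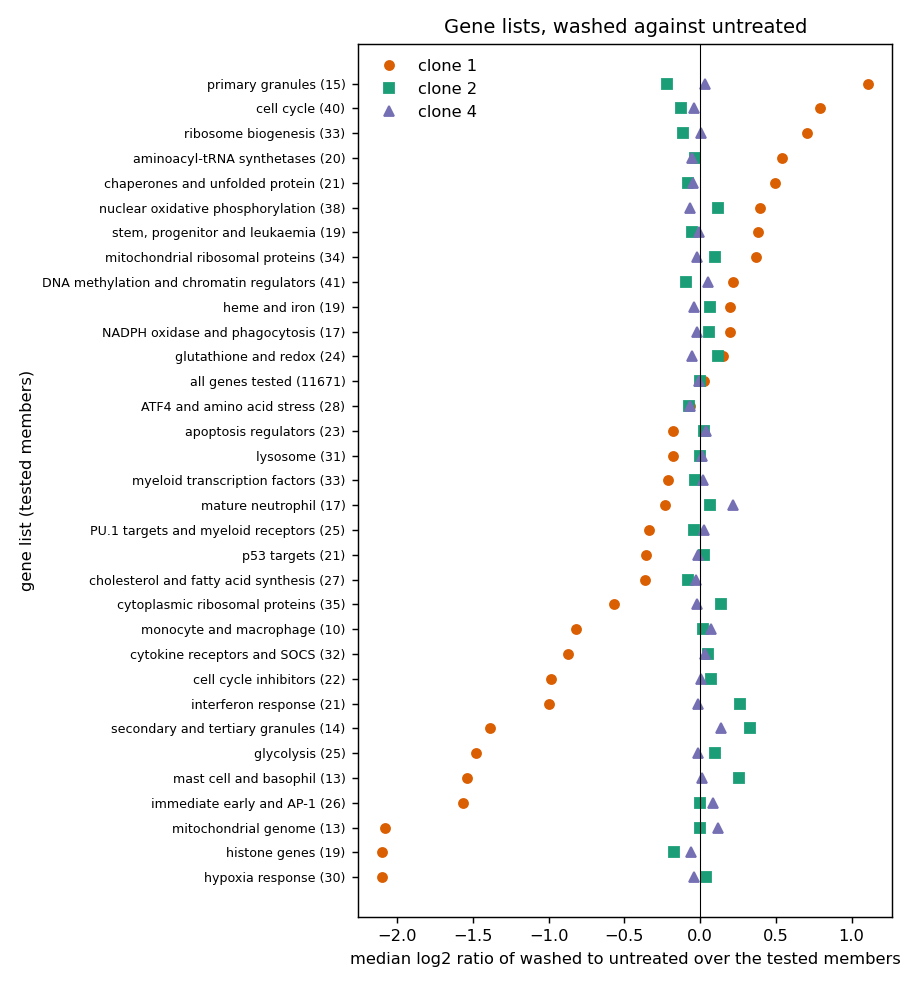
Median log2 ratio of washed to untreated (x axis) over the tested members of each gene list (y axis, number of members in brackets, lists of at least 10), 1 point per clone. Clone 1 spreads from -2.10 for hypoxia response and histone genes to 1.11 for primary granules, while clones 2 and 4 stay near 0; clone 1 medians between -0.57 and 0 change sign with library size alone as the scale.

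Summed markers of lymphoid, stromal and erythroid cells overlapped between the groups, while some myeloid markers did not keep their level in clone 1. The natural killer cell marker Ncr1 was at 0 in all 6 libraries, and 4 lymphoid markers summed to 0.37 to 0.74 CPM untreated and 0.09 to 0.85 CPM washed. Of 7 stromal, epithelial and endothelial markers, Col1a2 and Cdh5 were at 0, and the sum of 773 to 822 CPM untreated and 788 to 818 CPM washed was nearly all Pecam1, an adhesion molecule that blood cells also carry. Erythroid markers summed to 5.80 to 8.21 CPM untreated and 4.28 to 7.17 CPM washed. In washed clone 1 the monocyte and macrophage markers Csf1r, Adgre1 and Ccr2 stood at 0.558, 4.09 and 11.8 CPM against 33.8, 20.1 and 24.3 CPM untreated. Cx3cr1 went the other way, at 9.77 CPM against 7.48 CPM untreated, and Cd14 stood at 0.465 CPM against 0. The lower Cpa3 and Prg2 are given above, and the part of these markers in the clone 1 results was not tested. In such bulk libraries fewer cells of a type and less RNA per cell cannot be told apart.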

How the data were processed

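RNA was sequenced from AML246 clones 1, 2 and 4, and 6 of the 9 libraries, untreated and washed, form the comparison. Each deposited file gives, per the file headers, 1 whole-number count for every Entrez gene, with no normalization. The submitters' processing notes name the build mm10 with featureCounts, limma 3.22.0, edgeR 3.8.2 and CASAVA 1.8.2. Which aligner and strand setting served, and how multiply matching reads were counted, is not given in the sources used here. Counts of paralogs and antisense genes may therefore be shared. Symbols came from the RefSeq table of GRCm38.p6: of 27179 entries 25275 matched, and the other 1904 could enter the tests but were not named. Totals ran from 7408118 to 9803258 counts per library.

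filterByExpr on the 6 libraries kept 11671 genes. TMM factors came from all 9 libraries. Under R 4.3.3, the quasi-likelihood model of edgeR 4.0.16 was fitted with clone as a block, with Benjamini-Hochberg adjustment. SE is the log2 difference divided by the square root of F. A second model added the difference between clone 1 and clones 2 and 4, on 6 and on 9 libraries. Ratios within a clone used log2 CPM with a prior count of 2. The clone numbers pair the libraries because libraries of 1 clone come from 1 cell line; deviations from the group means correlated at 0.374, 0.777 and 0.384 between untreated and washed libraries of clones 1, 2 and 4. No 2 libraries agreed within sampling noise (chi-square per degree of freedom at least 3.47), so each counted once.

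Members, 37 gene lists (1019 names, 1002 matched) and rules were chosen with earlier results of these data known. Named genes were drawn from Spi1 and Trp53, the 10 genes of smallest p in each direction with 1 direction in all clones and a mean log2 CPM of at least 3, up to 3 genes of smallest p of each list described, the 10 largest clone 1 ratios in each direction and the 10 genes of smallest p of the clone 1 test, the 10 largest ratios shared by clones 2 and 4, and genes at least 4-fold moved by doxycycline, of which a part is named. Further list members were named after their values were seen, as were Lcn2, Il9r, Fos, Fosb, Hmga2 and Olfm4. 1 gene of the marker lists is not reported here. In the simulated data 200 of the 11671 genes differed. They were run through the main fit of washed against untreated and the fits of the clone 1 response. The fit on clones 2 and 4 alone and the other fits were not run on simulated data. The promoter search covered, on both strands, ACGTG for hypoxia, GAGGAAGT for PU.1 with its core GGAA, TTGCNNCAA for C/EBP, CACGTG for the E-box and TGANTCA for AP-1; the hypoxia and PU.1 motifs are reported. Alternatives used DESeq2 1.42.0 and limma 3.58.1. Figures were drawn with matplotlib 3.10.9.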

Additional observations from a re-analysis of the deposited data

Results flagged for a closer look

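The difference in response between clone 1 and clones 2 and 4 was the pattern that called for a closer look: 4900 genes passed in the 6-library test of that difference. Values below are the log2 response of clone 1 minus the mean response of clones 2 and 4. The dominant entry of untreated clone 1, which has no symbol, had -7.80. Another entry without a symbol, at 24420 CPM in untreated clone 1 and 114 CPM washed, had -8.49. Both ranked above the genes with a symbol, of which the 10 of smallest p were as follows. Ptgds had -7.37, Rn7sk -6.54, Aldoc -5.81 and Car9 -5.05. Scd1, the stearoyl-CoA desaturase, had -5.54, and Ndrg1, a hypoxia-induced gene, had -5.49. The mitochondrial ribosomal RNA genes mt-Rnr1 and mt-Rnr2 had -5.70 and -4.13, and Lars2 had -4.27. Mpo was the only one of the 10 with a higher response, at 4.57. Washed clone 1 lay at a median absolute log2 distance of 0.47 and 0.64 from the other washed libraries, which were 0.32 apart. Dixon's test for a single outlying sample was not run, since each group has 3 libraries.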

How the results depend on the processing

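The count of 0 genes called for washed against untreated was 0 under each of the other scalings, filters and tools run and at an adjusted p under 0.10, and 0 to 21 when each clone was left out, with 21 without clone 1. Without the replicate block, that is without pairing by clone, it was 0 in the 6 libraries (21 genes at an unadjusted p under 0.05) and 0 in the 9. Spi1 changed sign with library size alone (0.18) and ranged from -0.112 to 0.0723 when each clone was left out. Without clone 1, Cdkn2a, Mcpt8 and Cd28 passed. The test of clone 1 against clones 2 and 4 called 4639 to 7202 of the genes tested with edgeR or limma voom on the 6 libraries, 1444 with DESeq2 and 1820 with all 9 libraries; leaving out a clone leaves it no residual degrees of freedom. Genes past 2-fold in clone 1 were 1675 higher and 1666 lower at 1.5-fold, 54 and 412 at 3-fold, and 2891 and 384 with library size alone. In clone 2 they were 59 and 136 at 1.5-fold, 0 and 1 at 3-fold, and 7 and 20 with genes from 5 CPM. In clone 4 they were 34 and 15 at 1.5-fold, 2 higher at 3-fold, and 17 and 2 from 5 CPM, with 1 lower at a prior count of 0.5. Without the dominant entry and mitochondrial genes, chosen after seeing the data, clone 2 had 2 higher. Library size alone turned the sign of 10 of 37 list medians in clone 1. Depth limits what genes of few counts can show, and including those from 5 CPM added 2-fold differences in clones 2 and 4.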
